A study of Mus musculus with 6 samples.

Results

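The C/EBP family was followed in cumulus cells, the somatic cells around the oocyte, before and after the hormone that sets off ovulation. Its members were chosen by name, as every array probe set that the platform's annotation assigns to 1 of 7 genes and to no other. Of these genes, 5 were measured (Cebpa, Cebpb, Cebpd, Cebpg and Ddit3), by 10 probe sets, out of 18194 genes in all. Cebpe and Cebpz were not analysed here. All cells came from wild-type female mice given 5 IU of equine chorionic gonadotropin (eCG), which makes follicles grow, at an age of 21 days. After 46 h, the hCG-0h group (3 samples) received no human chorionic gonadotropin (hCG), and the hCG-6h group (3 samples) spent 6 h under 5 IU of it; the labels give an age of 23 days at isolation. The cumulus cells of 50 cumulus-oocyte complexes went into a sample. They were handled in a medium with 5 µM milrinone, which keeps oocytes from maturing, and every sample was measured on 1 expression array. The labels do not say whether samples came from separate animals, so that p-values measure only the spread between these samples, which may be technical. In the free-text descriptions the time is 7 h for hCG-6h sample 2 and 8 h for sample 3, against 6 h in titles and source names. No group without hCG was kept for the same hours, so hCG and elapsed time cannot be told apart, and 1 protocol speaks of extraction from whole complexes.

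The C/EBP proteins are transcription factors with a basic region that touches DNA and a leucine zipper through which they pair with each other or with related factors. C/EBP alpha, beta and delta (Cebpa, Cebpb and Cebpd) activate transcription. C/EBP gamma (Cebpg) lacks a strong activation domain and works through its partners, and Ddit3, also called CHOP, has an altered basic region and keeps its partners from ordinary C/EBP sites. In granulosa cells, C/EBP alpha and beta act downstream of the kinases ERK1 and ERK2 after the ovulatory surge of luteinising hormone, which hCG mimics, and mice that lack both factors in granulosa cells do not form normal corpora lutea. Cebpb messenger RNA is translated into longer activating and shorter inhibitory proteins from different start codons, which an RNA measurement does not separate.

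The 250 bases before the gene start are shown for the 4 measured members that the RefSeq promoter table for mouse build GRCm38.p6 holds, since the 2 genes that rose together, Cebpb and Cebpa, can be read there beside 2 that did not rise. They lie at chr2:167688665-167688914 (plus strand) for Cebpb, chr7:35119043-35119292 (plus strand) for Cebpa, chr7:35056567-35056816 (minus strand) for Cebpg and chr10:127290543-127290792 (plus strand) for Ddit3. Capitals mark matches to 6 short motifs searched on both strands: the C/EBP core TTGCNNAA, the CCAAT box CCAAT, the cyclic AMP response element half-site TGACG, the AP-1 site TGACTCA, the TATA box TATAAA and the GC box GGGCGG.
Cebpb: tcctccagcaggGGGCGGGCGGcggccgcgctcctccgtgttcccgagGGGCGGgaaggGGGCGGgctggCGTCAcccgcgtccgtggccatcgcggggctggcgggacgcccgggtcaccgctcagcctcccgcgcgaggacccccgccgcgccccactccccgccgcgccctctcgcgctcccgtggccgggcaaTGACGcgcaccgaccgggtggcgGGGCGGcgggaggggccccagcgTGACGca
Cebpa: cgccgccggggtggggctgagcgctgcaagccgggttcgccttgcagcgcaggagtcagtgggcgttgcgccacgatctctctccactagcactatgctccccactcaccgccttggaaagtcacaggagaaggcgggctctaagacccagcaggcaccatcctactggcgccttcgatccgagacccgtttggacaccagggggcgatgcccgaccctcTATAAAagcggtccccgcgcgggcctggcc
Cebpg: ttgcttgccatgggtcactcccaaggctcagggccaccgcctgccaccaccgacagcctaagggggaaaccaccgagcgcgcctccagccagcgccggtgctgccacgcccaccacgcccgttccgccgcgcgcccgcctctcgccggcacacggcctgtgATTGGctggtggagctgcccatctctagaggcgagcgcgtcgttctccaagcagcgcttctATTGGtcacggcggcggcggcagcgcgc
Ddit3: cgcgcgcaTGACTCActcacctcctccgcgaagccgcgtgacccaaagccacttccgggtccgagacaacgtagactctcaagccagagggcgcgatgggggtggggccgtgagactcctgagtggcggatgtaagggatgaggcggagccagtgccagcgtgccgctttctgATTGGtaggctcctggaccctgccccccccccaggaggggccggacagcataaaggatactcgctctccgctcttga

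The upstream windows of the members differed in composition and in these letters. In the Cebpb window the share of G and C was 81.6%, which 0.746% of all 32851 promoter windows of that length reached, against 66.4% for Cebpa, 70.8% for Cebpg, 64.8% for Ddit3 and a median of 52.4% over all windows. The Cebpb window held 3 TGACG half-sites, beginning 180, 53 and 7 bases before the start, the first of them on the opposite strand, and 5 GC boxes, 2 of which overlap. TGACG was found in 17.8% of all windows and GGGCGG in 32.7%. Cebpa had a TATA box 30 bases before its start, a motif of 12.4% of all windows, and none of the other motifs. Cebpg had 2 CCAAT boxes and Ddit3 had 1, all on the opposite strand (33.8% of all windows), and Ddit3 also had an AP-1 site (4.46% of all windows). No window of the 4 held the C/EBP core TTGCNNAA, which 9.56% of all windows hold. These are matches of letters in a short window and not sites shown to be used. Cebpa and Cebpg lie on the same chromosome on opposite strands.

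Of the 5 measured members, 3 rose at hCG-6h and none fell, where 10.8% of all 18194 genes rose and 10.5% fell (limma, adjusted p under 0.05; 21.3% in either direction). The 3 were the activators Cebpb, Cebpa and Cebpd, with rises between 2.42-fold and 2.67-fold, whereas Cebpg and Ddit3 did not pass. For each gene this test used the probe set with the highest mean over the 6 arrays. The median log2 change of the 5 members was 1.27, against 0.0067 over all genes. In these bulk samples fewer cells of a type and less RNA per cell cannot be told apart.

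Cebpb was measured by 2 probe sets and rose by both. On probe set 1418901_at its log2 level was 11.06, 11.11 and 10.83 in hCG-0h samples 1, 2 and 3 and 12.32, 12.36 and 12.57 in hCG-6h samples 1, 2 and 3. The groups lay more than 1 log2 unit apart, with hCG-0h sample 3 the lowest of all. The log2 change was 1.42 ± 0.13 (SE), or 2.67-fold (limma adjusted p = 0.000451 over all genes), with a 95% interval of 1.12 to 1.72. On probe set 1427844_a_at, whose suffix marks probes shared by several transcripts of 1 gene, the levels were 8.03, 8.03 and 7.73 at hCG-0h and 9.62, 9.58 and 9.57 at hCG-6h. Here the hCG-6h samples were close together, with an SD of 0.03 (n = 3), and again hCG-0h sample 3 was lowest. That probe set was 3.16-fold higher at hCG-6h (log2 change 1.66 ± 0.12, SE; limma adjusted p = 0.000313 over all 34958 probe sets with 1 symbol).

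Cebpa rose 2.42-fold on its only probe set. Its log2 level was 10.46, 10.81 and 10.33 in the hCG-0h samples and 11.87, 11.74 and 11.81 in the hCG-6h samples. The hCG-6h samples were close together (11.81 ± 0.07, SD, n = 3) and all lay above the hCG-0h samples, which were more spread (10.53 ± 0.25), with sample 2 the highest of them. The log2 change was 1.27 ± 0.14 (SE), with a 95% interval of 0.93 to 1.62 (limma adjusted p = 0.00132). The calls of Cebpa and Cebpb over all genes held whichever of the 6 samples was left out, with log2 changes of 1.17 to 1.41 for Cebpa and 1.33 to 1.47 for Cebpb.

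Cebpd, the family member best known from the acute-phase and inflammatory response, rose less evenly. On probe set 1423233_at it stood at 7.00, 6.18 and 7.07 in the hCG-0h samples and at 7.70, 7.69 and 8.84 in the hCG-6h samples. On probe set 1456605_at the levels were 6.96, 6.94 and 6.65, then 7.74, 7.62 and 8.51. On both probe sets the groups did not overlap and hCG-6h sample 3, the sample whose description gives 8 h, stood highest, by 1.14 and 0.77 over the next sample. Over all genes the rise was 2.51-fold and only just past the threshold (log2 change 1.33 ± 0.38, SE, 95% interval 0.43 to 2.23; limma adjusted p = 0.0493). The call was lost with any 1 of the 6 samples left out (adjusted p between 0.0617 and 0.126, log2 changes of 0.95 to 1.52), with 0.95 without hCG-6h sample 3. Over all probe sets, 1456605_at passed (log2 change 1.11 ± 0.25, SE; adjusted p = 0.0246) and 1423233_at did not (adjusted p = 0.0567). The call of 1456605_at was lost without any 1 hCG-0h sample (adjusted p between 0.0594 and 0.0803) and with the sample number as a replicate block (adjusted p = 0.0639).

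**Figure D1:**
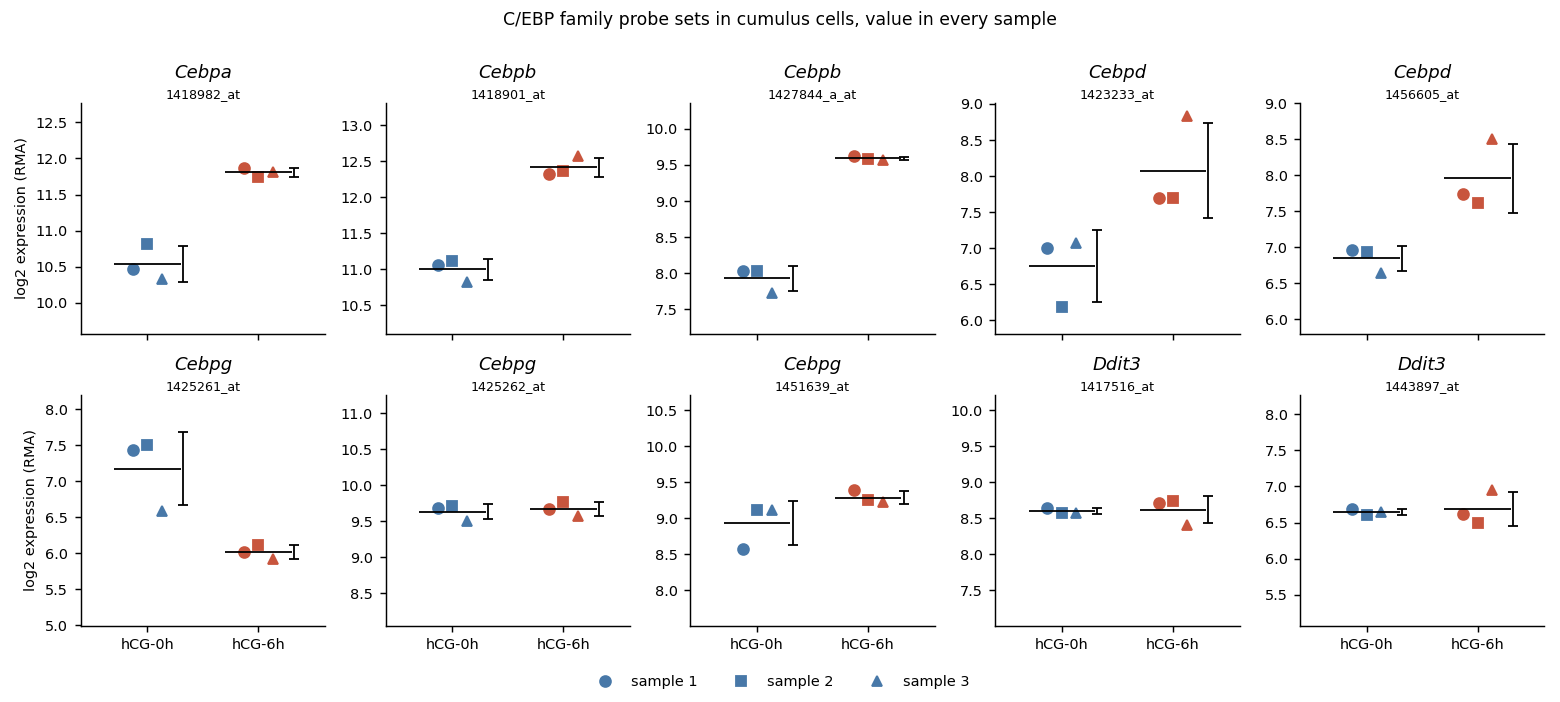
Log2 expression of the 10 probe sets of 5 C/EBP family genes in each sample (vertical axes, all spanning the same number of log2 units; circles, squares and triangles are samples 1, 2 and 3 of each group, horizontal lines the group means and bars 1 SD). The hCG-6h values of Cebpa, Cebpb and Cebpd lie above all hCG-0h values, those of Ddit3 overlap, and the 3 probe sets of Cebpg differ from each other.

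The 3 probe sets of Cebpg did not move alike. On 1425262_at, the brightest, the log2 levels were 9.68, 9.71 and 9.51 at hCG-0h and 9.67, 9.77 and 9.57 at hCG-6h. These groups overlapped, and the log2 change was 0.04, with a 95% interval of -0.23 to 0.30 (limma adjusted p = 0.863 over all genes). On 1451639_at the levels were 8.58, 9.11 and 9.11, then 9.39, 9.25 and 9.22, with hCG-0h sample 1 well below the rest (log2 change 0.35 ± 0.17, SE; adjusted p = 0.221 over all probe sets). On 1425261_at they were 7.43, 7.50 and 6.59 at hCG-0h and 6.02, 6.12 and 5.92 at hCG-6h. This dimmest probe set fell, to a level 2.22-fold lower (log2 change -1.15 ± 0.25, SE; adjusted p = 0.0216 over all probe sets), although hCG-0h sample 3 was nearer to the hCG-6h samples than to the other hCG-0h samples. Its call ended with any 1 sample left out except hCG-0h sample 3 (adjusted p up to 0.0701), without which the log2 change was -1.44 (adjusted p = 0.00223). Within each array, 1425262_at exceeded 1425261_at by 2.25, 2.21 and 2.92 log2 units at hCG-0h and by 3.65 in every hCG-6h sample. These differences did not overlap between the groups (exact permutation test, two-sided p = 0.1, the smallest that 3 against 3 samples allow; 0.2 adjusted over the 6 pairs of probe sets of 1 gene compared). A single direction for Cebpg cannot be read from these probe sets, and the mean of its 3 probe sets had a log2 change of -0.25 (adjusted p = 0.196).

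Ddit3 showed no change that could be told from the spread of the samples. On probe set 1417516_at it stood at 8.65, 8.58 and 8.57 in the hCG-0h samples and at 8.72, 8.74 and 8.41 in the hCG-6h samples. On 1443897_at the levels were 6.69, 6.61 and 6.64, then 6.62, 6.50 and 6.95. On both probe sets the hCG-6h samples spread over a wider range, on both sides of the hCG-0h samples. The log2 change over all genes was 0.02, and its 95% interval of -0.27 to 0.32 leaves out a rise of the size seen for Cebpa or Cebpb (limma adjusted p = 0.925).

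Counted by probe set, 4 of the 10 rose and 1 fell, against 9.28% and 9.43% of all 34958 probe sets with 1 symbol (18.7% in either direction). In 6 of the 10 the 3 hCG-6h values lay above the 3 hCG-0h values, which was so in 18.1% of all probe sets, and in 1 they lay below (18.2%). By gene, the hCG-6h values lay above in 3 of 5 members, against 19.3% of all genes, and below in none, against 18.7%. Probe sets of 1 gene share their target and are not separate evidence. The 2 probe sets of Cebpb differed in their change by 0.24 log2 units (exact permutation p = 0.1, again the smallest possible), those of Cebpd by 0.22 in size (p = 0.8) and those of Ddit3 by 0.02 (p = 1.0).

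**Figure D2:**
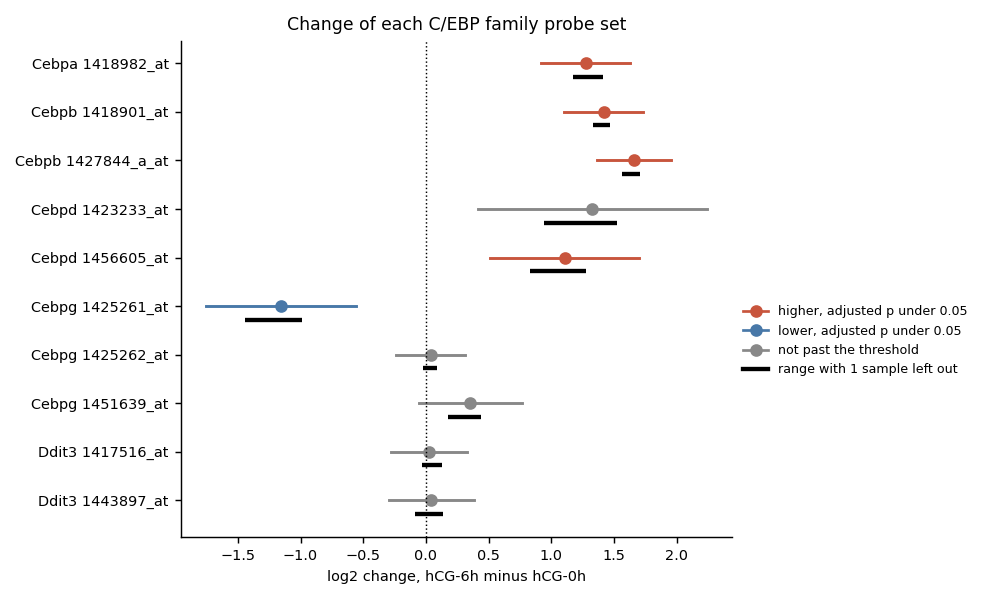
Log2 change, hCG-6h minus hCG-0h, of each C/EBP family probe set (points) with limma's 95% interval (coloured lines) and, below it in black, the range of the change with 1 of the 6 samples left out. Cebpa and Cebpb lie between 1.27 and 1.66 with short ranges, Cebpd has the widest interval, and of the Cebpg probe sets only 1425261_at lies below 0.

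Within the hCG-0h group, sample 3 held the lowest value of Cebpa and of both Cebpb probe sets, by 0.13 to 0.30 below the next sample. On Cebpd probe set 1423233_at it was instead the highest of its group, at 7.07. The immediate early genes Fos, Jun and Egr1, looked up after the values were seen, were lowest in hCG-0h sample 3. Over samples 1, 2 and 3 of that group Fos had levels of 12.17, 12.09 and 10.14, Jun of 12.38, 12.30 and 11.11, and Egr1 of 12.15, 12.39 and 11.05. At hCG-6h all 3 of these genes lay between 12.62 and 13.02 in every sample, and none of them passed (limma adjusted p between 0.0702 and 0.163). Without hCG-0h sample 3 the log2 changes of Cebpb and Cebpa were 1.33 and 1.17 and both passed. Of the 43 other genes named by rule, 6 lost their call without it. As many did without hCG-6h sample 3, and 2 to 5 did without each of the other samples.

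The genes whose 6 values were most like those of a risen member were found from the root mean square difference of log2 values, each gene centred on its own mean, over the 6 samples. For Cebpb they were Magee1, Glul (glutamine synthetase) and Fzd9 (a Frizzled receptor of Wnt proteins), at differences of 0.04, 0.07 and 0.08 log2 units. For Cebpa they were Pvr (a cell adhesion receptor), Lamtor3 (a scaffold protein of the ERK pathway) and Slc6a8 (the creatine transporter), at 0.06, 0.08 and 0.09. The profile of Cebpd had no neighbour so near, with Cdk20, Spry3 and Nim1k at 0.23, 0.26 and 0.26, and Nim1k itself did not pass, except without hCG-6h sample 2 or with the sample number as a replicate block. Likeness was measured over samples that include those in which the members rose, so these genes were bound to rise as well.

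Other factors of the same leucine zipper class moved in both directions. Of 13 measured factors that can pair with C/EBP proteins or share their sites, 1 rose, 3 fell and 9 did not pass. Over all genes 10.8% rose and 10.5% fell. The median log2 change of the 13 was -0.04. Atf5, a factor of stress and survival responses, stood at 9.64, 9.66 and 10.19 at hCG-0h and at 10.99, 10.95 and 10.78 at hCG-6h, a rise of 1.08 ± 0.17 (SE) on the log2 scale (limma adjusted p = 0.00556). It was 1 of 2 that rose without hCG-0h sample 3 or without hCG-6h sample 2. Tef, a factor of the clock-output group, fell by 1.42 and Atf2, a partner of Jun, fell by 0.82 on the log2 scale. Atf7, a relative of Atf2, fell by 0.58, a call lost when sample 2 or 3 of hCG-0h or sample 1 or 3 of hCG-6h was left out (adjusted p up to 0.0765). Atf4, the main inducer of Ddit3 in stressed cells and a partner of C/EBP gamma, stood at 11.99 ± 0.05 and 12.28 ± 0.07 (SD, n = 3 each). It did not pass (adjusted p = 0.0802) except with a trend and robust variance (adjusted p = 0.00529). Nfil3, a repressor of this class, had group means of 9.46 and 10.70 and did not pass with all samples (adjusted p = 0.0882). Its hCG-0h values had an SD of 0.93, with sample 3 the lowest at 8.39. Without that sample Nfil3 passed (log2 change 0.71, limma adjusted p = 0.019).

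Ddit3 stayed level beside a stress-response list in which a number of genes rose. The integrated stress response is the programme in which phosphorylation of the initiation factor eIF2 raises translation of Atf4, which then induces Ddit3, Trib3 and genes of amino acid supply. Of 24 measured genes of this programme 11 rose, none fell and 13 did not pass, where 10.8% of all genes rose and 10.5% fell. The median log2 change of the list was 0.39. Leaving out any 1 sample left 8 to 9 rising, and 1 fell without hCG-6h sample 1. The largest rise was that of Slc7a11, the cystine transporter, from 3.65, 4.67 and 5.95 at hCG-0h to 8.98, 9.05 and 9.35 at hCG-6h (log2 change 4.37 ± 0.53, SE; limma adjusted p = 0.00172). Its hCG-0h values were dim and spread, so the size is approximate, and it was 4.97 without hCG-0h sample 3. Ddit4, an inhibitor of mTORC1, stood at 9.72, 9.16 and 7.68 at hCG-0h and between 11.97 and 12.07 at hCG-6h, a rise of 3.17 on the log2 scale that was 2.58 without hCG-0h sample 3. Nupr1, a stress-induced nuclear protein, rose by 2.33 and Cth, which makes cysteine, by 1.86 on the log2 scale. Sesn2, Vldlr and Psat1 rose by 0.75, 0.81 and 0.83. Trib3, a pseudokinase and direct target of Ddit3, had group means of 7.53 and 8.09 and just missed the threshold (adjusted p = 0.0517), with groups that did not overlap. Trib3 passed with the mean of its probe sets (0.66, adjusted p = 0.00769) and without the dimmest 1 in 3 genes (adjusted p = 0.0416). Others that did not pass were Chac1, which degrades glutathione, with group means of 7.08 and 6.34 (adjusted p = 0.125), Asns, asparagine synthetase, 9.65 and 9.78 (adjusted p = 0.656), and Ppp1r15a, which guides dephosphorylation of eIF2, 10.08 and 10.40 (adjusted p = 0.461). The 4 kinases of eIF2, Eif2ak1 to Eif2ak4, did not pass, with adjusted p between 0.238 and 0.976. These genes that did not pass, and Sesn2, Vldlr and Psat1, were picked out after the values were seen.

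Among 21 measured genes whose proteins control the turnover, modification or activity of C/EBP proteins, 2 rose, 6 fell and 13 did not pass. Over all genes 10.8% rose and 10.5% fell. The median log2 change of the 21 was -0.02. Trib1 and Trib2, the pseudokinases that bring C/EBP alpha to the ubiquitin ligase COP1 for destruction, went opposite ways. Trib1 stood at 7.20, 7.48 and 6.81 at hCG-0h and at 9.12, 8.67 and 9.01 at hCG-6h, a rise of 1.77 ± 0.20 (SE) on the log2 scale (limma adjusted p = 0.00137), and 1 of its 2 probe sets passed. Trib2, named after its values were seen, had group means of 10.63 ± 0.16 and 9.68 ± 0.08 (SD, n = 3 each) and fell by 0.95 on the log2 scale (adjusted p = 0.00196). Cop1 itself was 10.11 and 10.01 in the groups and did not pass (adjusted p = 0.546). Fbxw7, a subunit that marks phosphorylated C/EBP proteins for degradation, rose by 0.99 (adjusted p = 0.00915). Smarca2, a chromatin remodelling enzyme that works with C/EBP factors, stood at 11.00, 10.94 and 11.11, then 9.37, 9.31 and 9.20, and fell by 1.72 on the log2 scale (adjusted p = 0.000107), with 1 of 2 probe sets passing. E2f1, the cell cycle factor that C/EBP alpha represses, fell by 1.82 (adjusted p = 0.0102). The other 3 that fell were Crebbp, Sirt1 and Pias1. The count of falls was 3 without any 1 of the hCG-0h samples or without hCG-6h sample 3.

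**Figure D3:**
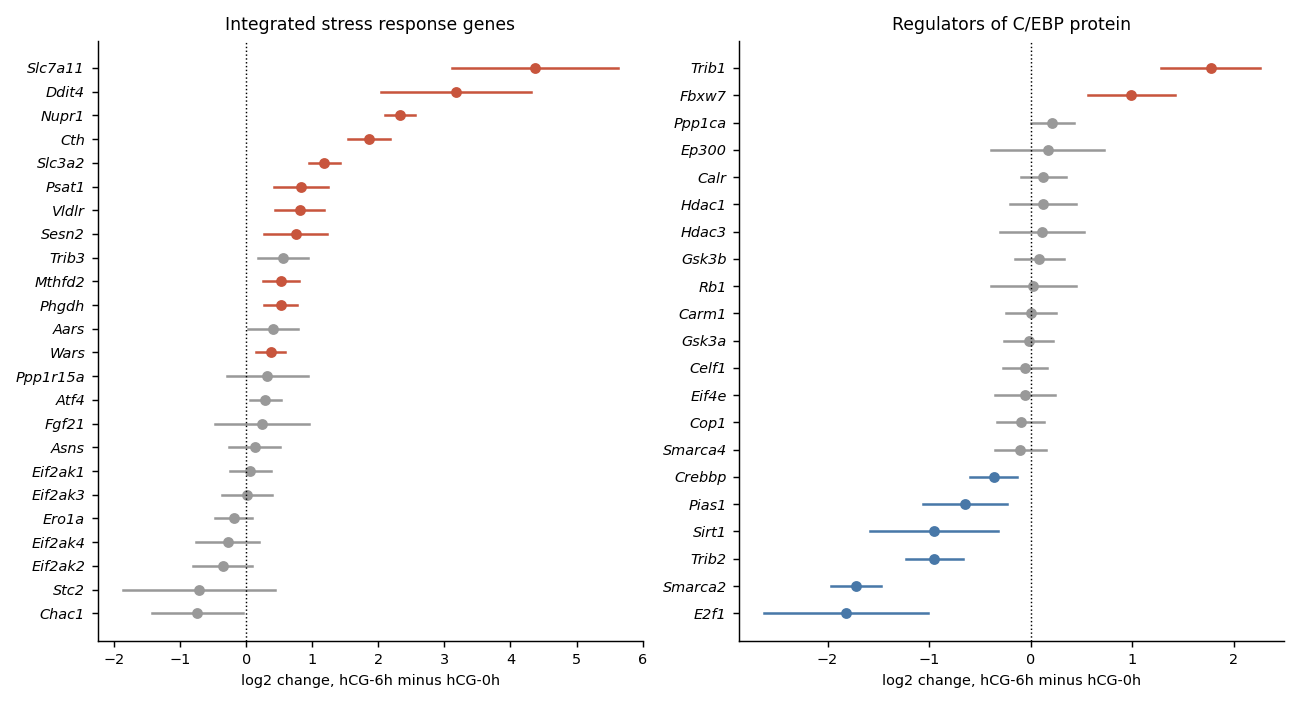
Log2 change, hCG-6h minus hCG-0h, with limma's 95% interval, of the genes of the integrated stress response (left) and of the regulators of C/EBP protein (right). Red marks genes that rose, blue those that fell and grey those that did not pass the adjusted p of 0.05: 11 on the left rose and none fell, and 2 on the right rose and 6 fell.

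In the kinase route above the C/EBP factors, the ERK cascade, 4 of 12 measured genes rose and 8 did not pass, where 10.8% of all genes rose. The median log2 change was -0.03, and Ksr1, a scaffold protein, fell without hCG-0h sample 3. Lamtor3, also the second neighbour of Cebpa by profile, stood at 8.34, 8.73 and 8.37 and then at 9.99, 9.68 and 9.72 (log2 change 1.32 ± 0.15, SE; limma adjusted p = 0.00138). The adaptor Grb2 and the exchange factor Sos2, which pass the signal of growth factor receptors to Ras, rose by 0.68 and 0.60 on the log2 scale. Map2k2, the ERK kinase MEK2, rose by 0.40, a call that held among the left-out samples only without hCG-6h sample 2. Its sister Map2k1, named after its values were seen, was 10.82 in both groups (adjusted p = 0.988).

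Ovarian genes that have been linked to C/EBP factors mostly rose. Where 10.8% of all genes rose and 10.5% fell, 11 of 14 measured genes rose, 1 fell and 2 did not pass. Their median log2 change was 2.36. They include Ptx3, Ereg, Ptgs2 and Pgr, which encode a matrix protein, an EGF-like ligand, the inducible prostaglandin synthase and the progesterone receptor, with log2 changes of 7.91, 6.98, 6.22 and 3.71. These sizes are approximate, since the hCG-0h means of Ptx3, Ereg, Ptgs2 and Pgr were only 5.54, 4.06, 6.28 and 4.71, against array medians of 6.89 to 6.93. Cited4, a transcription co-regulator, rose from 7.21 ± 0.15 to 9.20 ± 0.21 (SD, n = 3 each), and Scarb1, the receptor for high-density lipoprotein, from 11.28 ± 0.08 to 12.21 ± 0.03 (both picked out after seeing their values). The gene that fell was Fshr. This list was drawn up with earlier results of these data known, several of its genes being known there to rise, and its count is no independent evidence of a direction. Leaving out any 1 sample left 9 to 11 rising.

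Of 22 measured genes known as C/EBP targets in liver, fat and myeloid cells, 3 rose, 1 fell and 18 did not pass, with a median log2 change of 0.04, where 21.3% of all genes passed in either direction. With the mean of each gene's probe sets 5 rose, Id2 and Csf1r besides. Il6, encoding interleukin-6, stood at 2.91, 3.01 and 3.03, near the lowest values of the arrays, and then at 6.62, 6.13 and 6.39. Fabp4, a fatty acid-binding protein of fat cells, rose by 1.99 and Gadd45a, a growth-arrest gene, by 1.49 on the log2 scale, while Pparg, the fat cell regulator that C/EBP factors induce, fell by 0.65. The acute-phase genes Saa3, Lcn2 and Hp had group means between 5.06 and 6.26 and did not pass (adjusted p between 0.564 and 0.899; chosen after the values were seen). Among 10 other factors that bind CCAAT or are related to Cebpz, 2 rose and 2 fell. Ybx1, a Y-box protein, rose by 0.45 and Noc3l, a ribosome assembly factor, by 1.18, whereas Cux1 and Noc2l fell by 0.54 and 0.39. Over all probe sets neither of the 2 of Noc2l passed. With the mean of probe sets Noc2l (-0.11, adjusted p = 0.636) and Noc3l (0.87, adjusted p = 0.0681) did not pass. The call of Ybx1 held whichever sample was left out but not with the replicate block, under which 1 of the 10 rose (Noc3l) and none fell. The calls of Noc3l and Cux1 each ended in 4 of the 6 (for Noc3l sample 3 of hCG-0h and each sample of hCG-6h, for Cux1 samples 2 and 3 of each group), that of Noc2l in all 6. The subunits of NF-Y, the main CCAAT-box factor, Nfya, Nfyb and Nfyc, did not pass (adjusted p between 0.112 and 0.721).

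**Figure D4:**
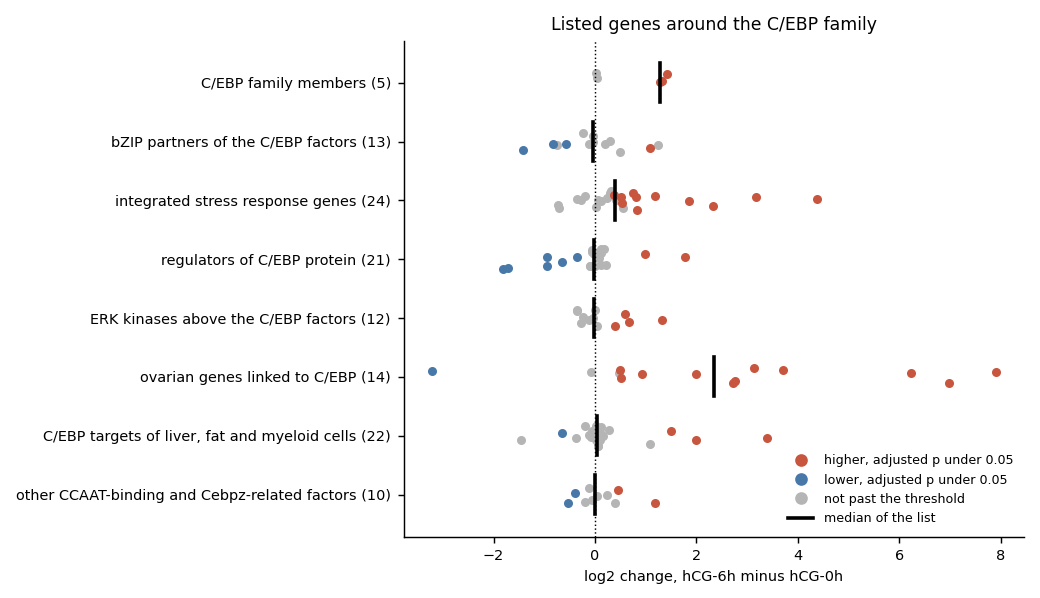
Log2 change, hCG-6h minus hCG-0h, of the measured genes of the C/EBP family and of 7 functional lists (points, with the number of genes in brackets; vertical bars are list medians; the height of a point within its row carries no value). The medians of the C/EBP family and of the ovarian genes linked to it lie at 1.27 and 2.36, that of the stress response genes at 0.39, and those of the other 5 functional lists within 0.04 of 0.

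Markers of other cell types had group means between 3.24 and 8.87 on the log2 scale. Of these 44 markers 3 passed, where 21.3% of all genes passed in either direction. Of 17 measured myeloid markers 1 rose and 1 fell, with their summed linear intensity between 9.95 and 10.07 at hCG-0h and between 10.32 and 10.40 at hCG-6h on the log2 scale. Ptprc, Adgre1 and Itgam of this list, which were not named by rule, had group means between 4.24 and 5.80 and did not pass. The brighter Cd68 and Lyz2, with group means between 6.18 and 6.88, did not pass. Nor did S100a8 (group means of 5.18 and 5.82, limma adjusted p = 0.0787), although its groups did not overlap. Csf1r of the same list did not pass either, but rose with the mean of its probe sets (log2 change 0.82, limma adjusted p = 0.0428). The rise was that of Camp, a granule peptide and classical target of C/EBP epsilon in granulocytes, from 7.07, 6.74 and 7.07 to 8.95, 8.98 and 8.67 (limma adjusted p = 0.000236). The fall was that of Fcer1g, by 0.88, a call that held among the left-out samples only without hCG-0h sample 1. None of 9 oocyte, 8 theca and stroma and 7 endothelial markers passed, and 1 of 3 red blood cell markers fell (Alas2, by 1.35). The endothelial marker Cdh5, a cadherin, just missed the threshold. It stood at 6.12, 5.74 and 7.52 at hCG-0h and at 7.73, 7.92 and 8.63 at hCG-6h (log2 change 1.63 ± 0.48, SE; limma adjusted p = 0.0531). The lowest value was in hCG-0h sample 2 and the highest in hCG-6h sample 3, as on Cebpd probe set 1423233_at. On the other Cebpd probe set, 1456605_at, the lowest was in hCG-0h sample 3. Among the endothelial markers Kdr was also highest in hCG-6h sample 3 (6.28), whereas Pecam1 and Emcn were lowest there (5.15 and 4.55). Cdh5 passed with the replicate block, with a trend and robust variance, without the dimmest 1 in 3 genes, with the mean of probe sets (2.11) and without hCG-0h sample 3 (2.16). The oocyte marker Dppa3 (group means of 6.67 and 7.63, adjusted p = 0.0851) passed only without hCG-0h sample 2. Cdh5, Kdr, Pecam1, Emcn and Dppa3 were named after their values were seen. The summed oocyte markers lay between 8.33 and 8.80 at hCG-0h and between 8.83 and 9.002 at hCG-6h. The endothelial ones lay between 7.93 and 8.56 and between 8.73 and 9.30. Both sums, like the myeloid one, were higher in every hCG-6h sample than in any hCG-0h sample. Bright genes weigh most in such sums. The brightest gene at hCG-6h in the myeloid, oocyte and endothelial lists (Camp, Dppa3 and Cdh5) also had the largest rise of its list. The median log2 changes of these lists were only 0.05, 0.05 and 0.13, so the sums do not show a shared rise of the markers. The part of such cells in the rises of Cebpa, Cebpb and Cebpd was not tested. Of 13 cumulus and granulosa genes 8 fell and 5 did not pass, where 10.5% of all genes fell. Group means of the 13 lay between 5.59 and 13.60. Inha, the inhibin alpha subunit, stood at 13.46 and 13.39. Those that fell include Slc38a3, Fshr, Amhr2 and Npr2, with log2 changes between -3.70 and -2.16.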

How the data were processed

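Total RNA of 6 samples was amplified, labelled with biotin and hybridised to 1 array each, per the labels' protocols. The deposited values of 45101 probe sets are on the log2 scale. GCOS, Affymetrix Expression Console 1.1 and RMA (background correction, quantile normalisation, summary of probes) are named in the submitters' processing notes. RMA compresses the changes of dim genes, and the number of arrays limits the precision. A genome build for the values was not given in the sources used here. Of the probe sets, 34958 had 1 gene symbol in the platform annotation, 932 had several and 9211 had none or were not listed. For each of 18194 genes the probe set with the highest mean was used; a second fit took all probe sets with 1 symbol.

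Both fits used limma 3.58.1 in R 4.3.3 (lmFit, eBayes, group as the only term, all 6 samples), two-sided, with Benjamini-Hochberg adjustment over all genes or probe sets and a threshold of 0.05. The scripts were tested on simulated data. Named genes are the members, up to 4 genes past the threshold with the largest changes from each list (7 functional, 6 of cell type markers) and 3 genes most alike in profile to each risen member. Atf4, Inha, Fshr, Csf1r, Elane and Mpo stand in more than 1 list. The members and lists were chosen with earlier results of these data known. No probe set of a named gene passed in the direction opposite to its gene, Cebpg aside. Some listed genes were not analysed here. Other settings were a block by sample number, other variance models, renormalisation, centring, a filter on dim genes, array weights, the mean of probe sets, hCG-6h sample 1 alone and each sample left out. Same-numbered samples did not deviate together (correlations of 0.011, -0.016 and 0.029 across genes).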

Additional observations from a re-analysis of the deposited data

How the results depend on the processing

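The rises of Cebpa and Cebpb over all genes kept their direction and stayed past the threshold under all 14 other settings. Cebpd kept its direction under all 14, but its log2 change missed the threshold with quantile normalisation again (1.29, adjusted p = 0.0529), centring on array medians (1.30, adjusted p = 0.0552), hCG-6h sample 1 alone (0.95, adjusted p = 0.249) and each sample left out (0.95 to 1.52). Sample 1 alone is assumed to vary like the other group. With it, 1577 genes passed in place of 3874, and 2 member probe sets in place of 5. Not past the threshold with it were the probe sets of Cebpa (1.34, adjusted p = 0.0544), 1456605_at of Cebpd (0.89) and 1425261_at of Cebpg (-1.15, adjusted p = 0.204). With a sample left out, 3 to 4 member probe sets passed, 3 of them without hCG-0h sample 1 or 2. The log2 changes were then 0.83 to 1.28 for 1456605_at (not past it without any 1 hCG-0h sample) and -1.44 to -0.99 for 1425261_at. The sample number, which is not known to pair these samples, was also used as a replicate block. With it 3264 genes passed, and the same 3 members rose (Cebpb 1.42, adjusted p = 0.006). Under that block 1423233_at of Cebpd passed (1.33, adjusted p = 0.0305) and 1456605_at did not (1.11, adjusted p = 0.0639). The former also passed with a trend and robust variance (1.33, adjusted p = 0.0415) and without the dimmest 1 in 3 probe sets (1.33, adjusted p = 0.0434). Of 43 other named genes, 25 kept their call under every setting that gave a value, and no call reversed. With sample 1 alone fewer of these named genes were called, and fewer stress-response genes rose. Those that rose then included Trib3 and Fgf21 (log2 changes of 0.89 and 0.98), which did not pass with all samples. With the mean of probe sets the log2 changes moved by over 1.5 times for Slc38a3 (-2.06), Ybx1 (1.23), Fabp4 (1.11), Trib1 (1.05), E2f1 (-1.01) and Smarca2 (-0.73). Those of Ptx3 (5.61) and Pgr (2.60) moved by less than that, and each of these calls was kept. Centring turned the split of genes from 1969 higher and 1905 lower to 1820 and 2050. Of the member probe sets, 1423233_at and 1456605_at of Cebpd and 1425261_at of Cebpg had the largest SE (0.38, 0.25 and 0.25). Such spread limits what these arrays resolve.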
